A study of Mus musculus with 8 samples.

Results

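The genes described here are the enzymes that build sterols and fatty acids, with the regulators that control them. The list holds 30 symbols, and 29 of them were measured out of 18193 genes with a probe set of 1 gene symbol. Acat2, the cytosolic thiolase that feeds acetyl-CoA into the pathway, has no such probe set and was not analysed here. Of several probe sets of a gene, the brightest on average over the 8 arrays represents it, a choice that uses no difference between the groups. The measured genes fall into 6 of the mevalonate pathway, 11 of the steps between squalene and cholesterol, 6 that control the transcription factor SREBP or carry sterol, and 6 of fatty acid synthesis.

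Mouse embryonic stem cells (ESCs), which can form all tissues of the embryo, were kept without serum or feeder cells in 2i medium, and 1 GeneChip array was hybridised per sample. In all groups this medium held leukaemia inhibitory factor, PD0325901 at 1 μM, which blocks MEK, and CHIR99021 at 3 μM, which blocks GSK3. Released cells (Resc, 3 arrays) received a small-molecule MYC inhibitor at 64 μM for 60 h and were then cultured without it for 48 h. Inhibitor-treated cells (MYCi, 2 arrays) received the same compound at 64 μM for 60 h, and control cells (DMSO, 3 arrays) received the same volume of solvent for 60 h. The compound disturbs the dimer of MYC and MAX. Released cells were thus in culture for 48 h longer than the DMSO cells, so withdrawal of the inhibitor and time in culture cannot be told apart in that comparison. Whether replicates were separate cultures is not stated in the labels, and p-values therefore reflect array-to-array spread alone, which may be technical.

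Cholesterol is made from acetyl-CoA through mevalonate, isoprenoid units, squalene and lanosterol. The genes of this route are switched on together by SREBP2, a membrane-bound factor that the escort protein SCAP carries to the Golgi when sterol in the endoplasmic reticulum is low. INSIG proteins hold SCAP back when sterol is plentiful, and the related factor SREBP1 acts mainly on fatty acid genes. MYC is known to raise many biosynthetic genes by binding as a dimer with MAX to the E-box CACGTG.

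Values are log2 expression values normalized with RMA, which equalises the distribution between arrays, so they are relative levels and show no change in RNA per cell shared by most genes. Over all genes, correlations across genes ran from 0.9977 to 0.9982 within a group, from 0.9954 to 0.9962 for released with DMSO arrays and from 0.9803 to 0.9808 for inhibitor-treated with DMSO arrays. All 8 ESC markers were high on every array, and their summed level (log2) was 14.90 to 14.96 on released, 14.93 on inhibitor-treated and 14.89 to 14.92 on DMSO arrays. With the inhibitor 4 of the 8 were higher than with DMSO and 1 was lower, with changes from -0.26 to 0.69. Over all genes, 19.2% were higher and 22.3% lower. Each of the 7 fibroblast and feeder markers and the 6 endoderm markers lay below 5 on every array. The summed trophectoderm markers read 8.98 to 9.19 on released, 11.33 to 11.41 on inhibitor-treated and 9.62 to 9.80 on DMSO arrays, and 4 of the 7 genes were higher with the inhibitor than with DMSO, Krt8 by 9.43-fold, Krt18 by 31.9-fold, Gata3 by 2.43-fold and Krt7 by 2.15-fold. The other 3 did not pass, among them Cdx2 with a change of -0.20 and Elf5, which lay below 5 on every array. Summed neural markers read 8.06 to 8.16 on released, 7.79 to 7.83 on inhibitor-treated and 8.30 to 8.44 on DMSO arrays, and the 3 measured mesoderm markers 6.71 to 6.86 on released, 6.61 to 6.63 on inhibitor-treated and 6.68 to 6.82 on DMSO arrays. The difference between 3′ and 5′ Gapdh control probes, a sign of RNA quality, was -0.13 to -0.12 on released, -0.22 to -0.15 on inhibitor-treated and -0.13 to -0.11 on DMSO arrays, while that of Actb overlapped at 0.25 to 0.28, 0.25 to 0.29 and 0.25 to 0.27 on released, inhibitor-treated and DMSO arrays. The trophectoderm and neural sums and the Gapdh difference moved with the inhibitor, as the genes below did. On the inhibitor-treated arrays the ESC sum also lay above the DMSO range and the mesoderm sum below it. The fibroblast and feeder sum did so too, at 6.29 to 6.38 on inhibitor-treated and 6.39 to 6.53 on DMSO arrays. The part of these differences in the results was not tested. A smaller share of cells of one type and less RNA per cell cannot be told apart in such bulk samples.

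With the inhibitor, the sterol genes did not move as a block. On the kept probe sets, the sterol factor Srebf2 and the enzymes Hmgcs1, Cyp51, Msmo1 and Sc5d rose. Idi1, Fdps, Mvd and Mvk of the mevalonate pathway and the isomerase Ebp fell. Of these, Hmgcs1, Msmo1, Idi1 and Ebp kept their call under every alternative setting and on every other probe set, and the rest did not. Against DMSO, 12 of the 29 genes passed as higher and 7 as lower (limma, adjusted p under 0.05), and 10 did not pass. Over all genes, 41.5% passed in this comparison, 19.2% as higher and 22.3% as lower. Among the 7795 genes whose mean level was at least that of the lowest of the 29, a background chosen after the data were seen, 62.8% passed, 29.7% as higher and 33.1% as lower. The 65.5% of sterol and fatty acid genes that passed is near that share, with 41.4% higher and 24.1% lower. The median log2 change of the 29 was 0.02, against -0.06 over all genes, and the median size of the change was 0.27, against 0.19 over all genes and 0.29 over the 7795. On the kept probe sets, changes ran between -0.47 and 0.77 on the log2 scale. Of the genes that passed, 5 changed at least 1.5-fold, as did 14.5% of all genes, and 0 changed 2-fold. Probe sets that were not kept reached 1.48 for Hmgcs1 and -1.01 for Stard4. On 23 of the 29 genes the inhibitor-treated and DMSO arrays did not overlap, where 60.5% of all genes did not. For overlap no share over the 7795 genes is given, in this or the later comparisons. These counts are therefore not set against genes of like level.

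**Figure D1:**
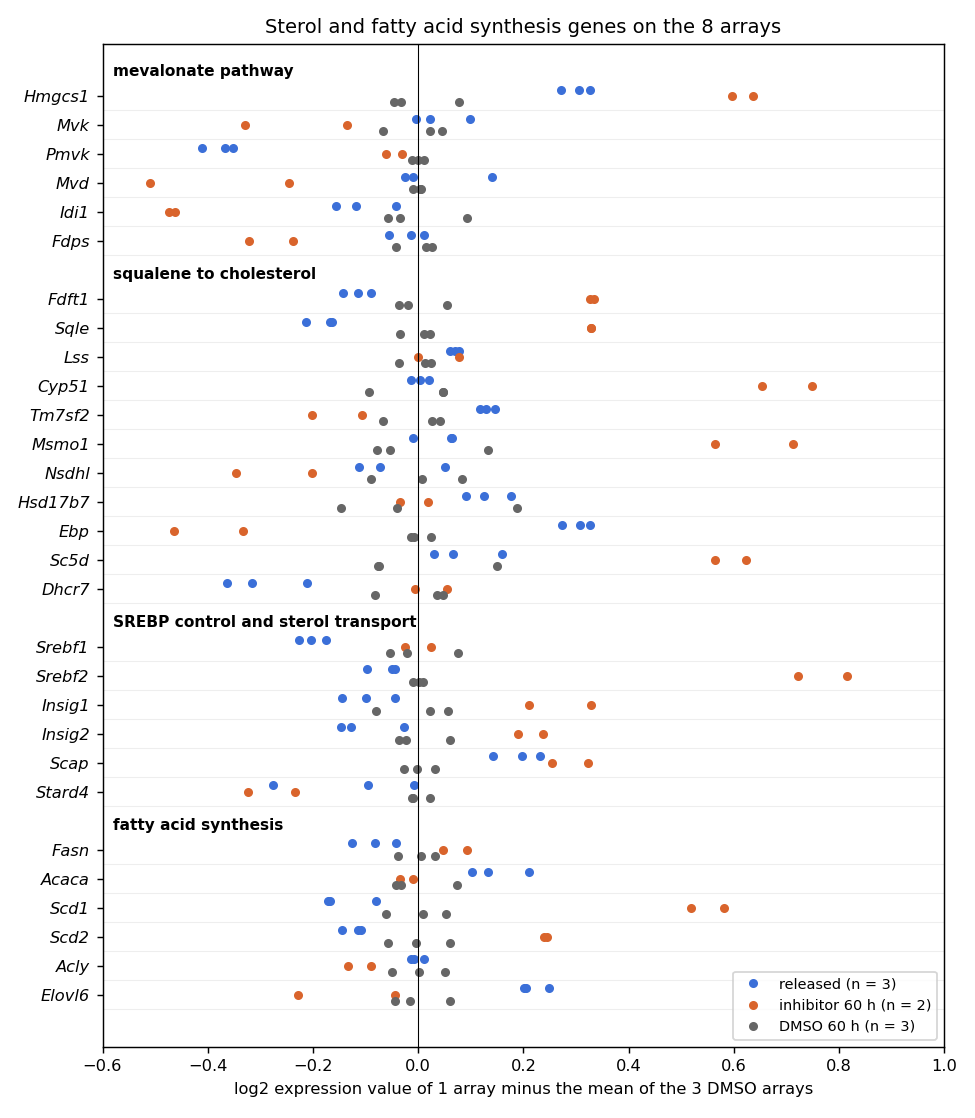
Log2 value of each of the 29 genes on each of the 8 arrays, minus the mean of the 3 DMSO arrays (horizontal axis), with genes in rows by role and 1 point per array, coloured by group (released, inhibitor-treated, DMSO). The 2 inhibitor-treated arrays stand apart in both directions, from Srebf2 (0.77 above DMSO) to Idi1 (0.47 below).

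Of the 6 measured genes of the mevalonate pathway, Hmgcs1 was higher, 4 were lower and Pmvk did not pass. Hmgcs1, the synthase that makes HMG-CoA, read 11.64 and 11.68 on inhibitor-treated arrays, against 11.01, 11.12 and 11.00 on DMSO arrays. Both inhibitor-treated arrays lay above all DMSO arrays, and the gene was 1.53-fold higher (log2 change 0.62 ± 0.064 SE, adjusted p = 3.71e-05, limma). Idi1, which isomerises isopentenyl diphosphate, read 9.49 and 9.50 on inhibitor-treated arrays, against 9.90, 10.06 and 9.93 on DMSO arrays, with no overlap. It fell by 0.47 ± 0.07 on the log2 scale (adjusted p = 0.000411, limma), which is 1.38-fold lower. Fdps, which joins these units to farnesyl diphosphate, read 10.47 and 10.39 with inhibitor, against 10.67, 10.73 and 10.74 with DMSO. The groups did not overlap, and the change was -0.28 ± 0.062 (adjusted p = 0.00487, limma). Mvd, the decarboxylase of the pathway, read 7.56 and 7.29 on inhibitor-treated arrays, against 7.81, 7.79 and 7.80 on DMSO arrays. Its second inhibitor-treated array was the lowest of all, and the change of -0.38 ± 0.087 (adjusted p = 0.00608, limma) had an adjusted p of 0.0705 without that array. Mvk, mevalonate kinase, read 6.93 and 6.73 with inhibitor and 7.08, 7.11 and 7.00 with DMSO. It fell by 0.23 ± 0.077 (adjusted p = 0.035, limma), again with the second inhibitor-treated array lowest. The adjusted p was 0.282 without that array, 0.08 without the first DMSO array and 0.0869 without the second. Pmvk, the next kinase, read 7.91 and 7.88 with inhibitor and 7.93, 7.94 and 7.95 with DMSO, a change of -0.05 that did not pass (adjusted p = 0.57, limma).

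Between squalene and cholesterol, 5 of 11 genes were higher, 2 were lower and 4 did not pass. Cyp51, the lanosterol demethylase, read 9.55 and 9.46 on inhibitor-treated arrays, against 8.71, 8.85 and 8.85 on DMSO arrays. This was 1.63-fold higher with no overlap (0.70 ± 0.069, adjusted p = 2.5e-05, limma). Msmo1, the methylsterol oxidase that acts soon after it, read 10.75 and 10.60 with inhibitor, against 9.98, 10.17 and 9.96 with DMSO. It was 1.56-fold higher (0.64 ± 0.082, adjusted p = 0.000151, limma), and the lower inhibitor-treated array still exceeded the highest DMSO array. Sc5d, which introduces a late double bond, read 8.66 and 8.72 with inhibitor, against 8.02, 8.25 and 8.03 with DMSO, 1.51-fold higher (0.59 ± 0.084, adjusted p = 0.000284, limma). The DMSO arrays of Sc5d spread more than the inhibitor-treated ones, without reaching them. Fdft1, squalene synthase, read 10.64 and 10.63 with inhibitor, against 10.27, 10.36 and 10.29 with DMSO (0.33 ± 0.061, adjusted p = 0.00151, limma). Sqle, the squalene epoxidase that follows, read 10.16 and 10.16 with inhibitor, against 9.80, 9.85 and 9.84 with DMSO (0.33 ± 0.059, adjusted p = 0.00127, limma). Both enzymes of squalene were thus higher on each inhibitor-treated array than on any DMSO array, by a smaller amount than Cyp51.

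The 2 late genes that fell were Ebp and Nsdhl. Ebp, the sterol isomerase, read 8.99 and 8.86 on inhibitor-treated arrays, against 9.31, 9.35 and 9.31 on DMSO arrays. It was lower without overlap (-0.40 ± 0.064, adjusted p = 0.000649, limma). Nsdhl, which removes a methyl group together with Msmo1 and Hsd17b7, read 8.85 and 8.71 with inhibitor, against 8.96, 9.14 and 9.06 with DMSO. Its change of -0.27 ± 0.081 (adjusted p = 0.0216, limma) lost the call without the second inhibitor-treated array (adjusted p = 0.169) or the second DMSO array (0.063). Lss, which closes squalene epoxide to lanosterol, Hsd17b7, the sterol reductase Tm7sf2 and Dhcr7, which makes cholesterol in the last step, did not pass. Their changes were 0.04, -0.01, -0.15 and 0.02.

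Among the regulators, 4 of 6 were higher, 1 was lower and 1 did not pass. Srebf2, which encodes SREBP2, read 8.94 and 8.85 on inhibitor-treated arrays, against 8.13, 8.13 and 8.12 on DMSO arrays. On the kept probe sets it had the largest change of the 29 genes, 1.7-fold higher (0.77 ± 0.061, adjusted p = 5.83e-06, limma), and the DMSO arrays were nearly equal. A second probe set of Srebf2 changed by 0.077 (adjusted p = 0.467 in a fit over all probe sets), so the rise was seen by 1 of 2 probe sets. Srebf1, the gene of SREBP1, read 9.22 and 9.17 with inhibitor and 9.15, 9.18 and 9.27 with DMSO, with overlapping groups and a change of -0.00 ± 0.064 (95% interval -0.15 to 0.14). Scap, the escort of SREBP, read 7.59 and 7.66 with inhibitor, against 7.33, 7.36 and 7.30 with DMSO, and was higher without overlap (0.29 ± 0.062, adjusted p = 0.00396, limma). Its dimmer second probe set changed by 0.087 (adjusted p = 0.69), and the mean of both by 0.19 (adjusted p = 0.106). Insig1, the sterol-responsive retention protein, read 10.16 and 10.28 with inhibitor, against 9.97, 10.01 and 9.87 with DMSO (0.27 ± 0.071, adjusted p = 0.0123, limma). Insig2, its relative, read 7.25 and 7.20 with inhibitor, against 6.99, 7.07 and 6.98 with DMSO (0.21 ± 0.067, adjusted p = 0.0271, limma). Neither INSIG gene overlapped between the groups, but both calls were lost without the second inhibitor-treated array (adjusted p = 0.108 for Insig1 and 0.0705 for Insig2). That of Insig2 was also lost without the first inhibitor-treated array (0.137), the first DMSO array (0.0665) or the third DMSO array (0.0711). Stard4, a carrier of cholesterol between membranes, read 7.01 and 6.92 with inhibitor, against 7.27, 7.23 and 7.23 with DMSO. Its change of -0.28 ± 0.082 (adjusted p = 0.0208, limma) was the smallest of its 3 probe sets, the others falling by 1.01 and 0.68. On the kept probe set the adjusted p was 0.135 without the second inhibitor-treated array and 0.0529 without the first DMSO array.

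Of the 6 genes of fatty acid synthesis, the kept probe sets of 2 desaturases passed as higher with the inhibitor and the other 4 genes did not pass. Scd1, which puts the first double bond into saturated fatty acids, read 11.66 and 11.59 on inhibitor-treated arrays, against 11.01, 11.13 and 11.08 on DMSO arrays. This is 1.46-fold higher on the kept probe set (0.55 ± 0.066, adjusted p = 9.63e-05, limma). The other Scd1 probe set went the opposite way, with means of 7.33 on inhibitor-treated and 8.08 on DMSO arrays (-0.75, adjusted p = 2.09e-05 in the fit over all probe sets), and the mean of both changed by -0.10 (adjusted p = 0.203), so no direction can be given for Scd1 as a gene. Scd2, a close copy of Scd1 whose transcripts could share probe signal with it, read 12.60 and 12.59 with inhibitor, against 12.30, 12.35 and 12.42 with DMSO. Its change of 0.24 ± 0.062 (adjusted p = 0.0103, limma) just missed the threshold without the second inhibitor-treated array (adjusted p = 0.0500) and without the first (0.0536). Fasn, the fatty acid synthase, changed by 0.07 ± 0.061 (95% interval -0.07 to 0.20), Acaca, which makes malonyl-CoA, by -0.02, Acly, which makes cytosolic acetyl-CoA from citrate, by -0.11 and the elongase Elovl6 by -0.14. None of these 4 passed (adjusted p between 0.168 and 0.821, limma).

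**Figure D2:**
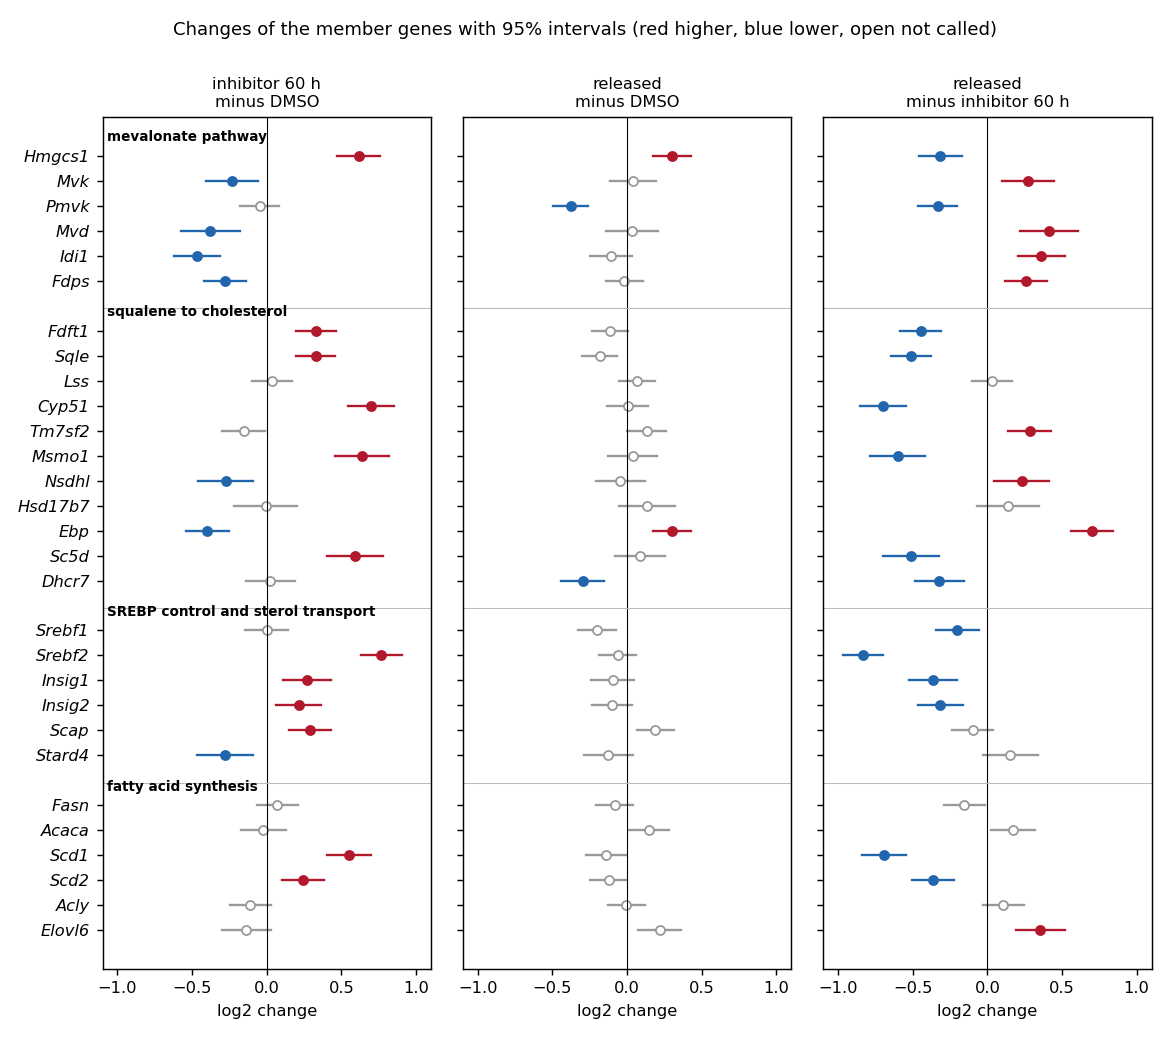
Log2 change of each of the 29 genes with its 95% interval from limma, in 3 panels for inhibitor-treated against DMSO, released against DMSO and released against inhibitor-treated arrays. Red points passed as higher, blue points as lower, and open grey points have an adjusted p of 0.05 or more. With the inhibitor the changes spread from -0.47 for Idi1 to 0.77 for Srebf2, and after release they lie between -0.38 for Pmvk and 0.30 for Ebp.

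The upstream sequence of some of these genes is shown so that genes with opposite changes can be set side by side. RefSeq windows of GRCm38.p6, read over the 250 bases before the annotated start, were found for 23 of the 29 genes. Fdps, Fdft1, Sqle, Stard4, Scd1 and Scd2 had no entry. The first 3 sequences belong to the higher genes with the smallest p and the next 3 to the lower genes with the smallest p, among genes with 1 window. The last pair comes from higher genes with an E-box. Each runs 5′ to 3′ on the gene's strand and ends at the base before the start. Capitals mark a sterol regulatory element (TCACNCCAC, or TCACNCCA without its last base), a CCAAT box, which binds NF-Y, and the E-box CACGTG, on either strand.
Srebf2, chr15:82147019-82147268, plus strand: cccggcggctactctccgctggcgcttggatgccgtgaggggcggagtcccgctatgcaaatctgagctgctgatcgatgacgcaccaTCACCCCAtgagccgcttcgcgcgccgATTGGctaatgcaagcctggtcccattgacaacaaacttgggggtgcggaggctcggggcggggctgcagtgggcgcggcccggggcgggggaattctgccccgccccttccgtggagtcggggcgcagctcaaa
Cyp51, chr5:4104698-4104947, minus strand: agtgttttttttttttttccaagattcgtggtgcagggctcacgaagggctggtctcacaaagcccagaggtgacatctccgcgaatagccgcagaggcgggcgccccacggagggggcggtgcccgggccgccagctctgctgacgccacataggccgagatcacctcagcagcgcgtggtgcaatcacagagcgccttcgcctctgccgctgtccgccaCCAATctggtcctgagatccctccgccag
Hmgcs1, chr13:119690101-119690350, plus strand: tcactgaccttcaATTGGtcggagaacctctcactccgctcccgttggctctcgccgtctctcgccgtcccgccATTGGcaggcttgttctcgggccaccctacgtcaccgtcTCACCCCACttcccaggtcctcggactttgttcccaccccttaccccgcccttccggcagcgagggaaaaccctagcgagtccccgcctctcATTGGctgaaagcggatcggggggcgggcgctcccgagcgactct
Idi1, chr13:8885356-8885605, plus strand: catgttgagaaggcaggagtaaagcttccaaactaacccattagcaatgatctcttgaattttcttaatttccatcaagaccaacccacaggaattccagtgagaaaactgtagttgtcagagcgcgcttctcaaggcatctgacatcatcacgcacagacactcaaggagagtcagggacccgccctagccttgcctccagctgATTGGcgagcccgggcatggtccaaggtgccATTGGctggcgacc
Ebp, chrX:8193513-8193762, minus strand: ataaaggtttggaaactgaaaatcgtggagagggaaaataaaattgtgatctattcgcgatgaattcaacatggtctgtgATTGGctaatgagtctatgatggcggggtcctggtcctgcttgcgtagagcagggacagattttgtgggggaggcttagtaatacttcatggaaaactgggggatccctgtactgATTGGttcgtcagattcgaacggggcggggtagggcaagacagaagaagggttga
Mvd, chr8:122443423-122443672, minus strand: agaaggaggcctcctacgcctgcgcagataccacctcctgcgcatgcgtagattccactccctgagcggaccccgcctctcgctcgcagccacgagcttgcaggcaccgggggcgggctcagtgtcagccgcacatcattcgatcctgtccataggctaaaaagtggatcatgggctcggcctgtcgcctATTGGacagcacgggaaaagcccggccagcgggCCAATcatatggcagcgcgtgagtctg
Insig1, chr5:28071162-28071411, plus strand: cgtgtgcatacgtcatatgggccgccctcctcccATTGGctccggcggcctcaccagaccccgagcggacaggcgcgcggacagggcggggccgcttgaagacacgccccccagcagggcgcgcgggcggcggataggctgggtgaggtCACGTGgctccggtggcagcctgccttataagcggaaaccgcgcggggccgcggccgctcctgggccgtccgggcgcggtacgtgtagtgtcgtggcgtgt
Sc5d, chr9:42264301-42264550, minus strand: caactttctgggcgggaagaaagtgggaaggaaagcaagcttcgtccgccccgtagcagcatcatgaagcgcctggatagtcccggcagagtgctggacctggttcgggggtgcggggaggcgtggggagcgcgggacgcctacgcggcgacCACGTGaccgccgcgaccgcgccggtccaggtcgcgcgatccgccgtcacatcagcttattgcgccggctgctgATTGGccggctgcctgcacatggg

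The Hmgcs1 window held the 9-base sterol element TCACCCCAC, 137 to 129 bases before the start, and that of Srebf2 held TCACCCCA at 162 to 155. Over all 32851 windows, 1.05% held TCACNCCAC and 3.67% held TCACNCCA, which the longer motif contains. Of the 23 genes, 1 held the longer form and 3 the shorter (13.0%, against 4.20% of all 27025 genes). These were Hmgcs1, Msmo1 and Srebf2, all 3 higher with the inhibitor. A CCAAT box stood in 82.6% of the 23 genes, against 37.5% of all genes and 33.8% of windows. It occurred in 7 of 8 higher, 5 of 5 lower and 7 of 10 genes that did not pass. The GC box GGGCGG, an SP1 motif left in lower case, also stood in 19 of 23 genes, against 35.4% of all genes and 32.7% of windows, and the windows of the 23 genes had a mean GC content of 60.7%, against 53.2% over all. The E-box CACGTG stood in 5 of 23 genes (21.7%, against 6.86% of all genes and 6.02% of windows), namely Insig1, Sc5d and Scap among the 8 higher, Dhcr7 and Hsd17b7 among the 10 that did not pass, and in 0 of the 5 lower. Its position was 101 to 96 bases before the start in Insig1 and 98 to 93 in Sc5d. The motifs were chosen after the data were seen, other matches can lie outside these windows, and a match is a description and not a bound site.

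**Figure D3:**
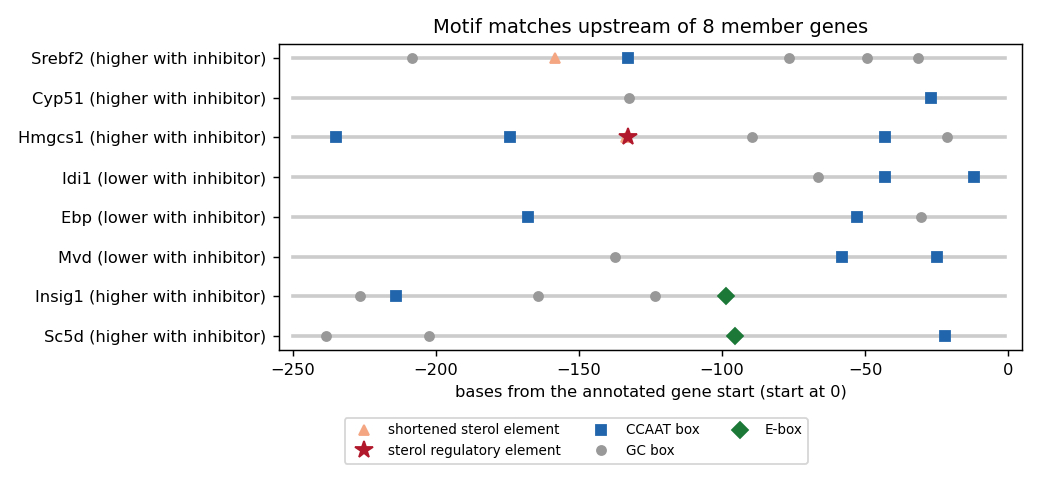
Positions of the sterol element, CCAAT box, GC box and E-box in the 250 bases before the start of the 8 genes whose sequences are given, with genes in rows, their call with the inhibitor in brackets and bases from the annotated start on the horizontal axis. CCAAT and GC boxes stand in the 5 higher and the 3 lower genes, the sterol element in Srebf2 and Hmgcs1, and the E-box in Insig1 and Sc5d.

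After release, most of these genes did not differ from DMSO by the test. Against DMSO, 2 were higher, 2 were lower and 25 did not pass, where 8.66% of all genes passed, 4.66% as higher and 4.01% as lower. Among genes at or above the level of the lowest of the 29, 12.9% passed, 6.61% as higher and 6.26% as lower. The 4 of 29 sterol and fatty acid genes are near that share. The median change was -0.02, against 0.00 over all genes. The comparisons share the DMSO arrays with the inhibitor comparison, so their values are given side by side without a test of likeness.

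The 4 genes that passed against DMSO after release were all enzymes of sterol synthesis. Under some alternative settings Srebf1, Scap, Scd1, Scd2 and Elovl6 passed as well. Hmgcs1 read 11.35, 11.31 and 11.37 on released arrays, against the 11.01 to 11.12 of DMSO arrays, with no overlap. It was 0.30 ± 0.058 higher (adjusted p = 0.0115, limma), beside 0.62 with the inhibitor, and all 5 of its probe sets passed as higher in both comparisons. Ebp read 9.60, 9.63 and 9.65 on released arrays, against 9.31, 9.35 and 9.31 on DMSO arrays. It was 0.30 ± 0.057 higher (adjusted p = 0.0108, limma), beside -0.40 with the inhibitor, so released arrays were the highest and inhibitor-treated arrays the lowest. Pmvk read 7.57, 7.53 and 7.59 on released arrays, against 7.93, 7.94 and 7.95 on DMSO arrays. This change of -0.38 ± 0.052 (adjusted p = 0.00207, limma) stood beside a value of -0.05 with the inhibitor that did not pass. Dhcr7 read 7.91, 8.02 and 7.87 on released arrays, against 8.15, 8.28 and 8.27 on DMSO arrays (-0.30 ± 0.065, adjusted p = 0.0213, limma). Its groups did not overlap, but its call was lost when any of 4 arrays was left out (adjusted p between 0.0674 and 0.078).

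A few genes stood just short of the threshold after release. Sqle read 9.66, 9.66 and 9.62 on released arrays, a change of -0.18 from DMSO (adjusted p = 0.0632). Srebf1 read 8.99, 9.02 and 8.97 on released arrays, a change of -0.20 (adjusted p = 0.061). Scap read 7.48, 7.56 and 7.53 on released arrays, a change of 0.19 (adjusted p = 0.0667). All released arrays of Sqle and Srebf1 lay below, and those of Scap above, the DMSO arrays, without passing the limma test. Elovl6 read 10.04, 10.00 and 10.00 on released arrays, against 9.78, 9.75 and 9.86 on DMSO arrays (0.22 ± 0.065, adjusted p = 0.0719). In all, the arrays of 16 of the 29 genes did not overlap between released and DMSO cells, where 28.6% of all genes did not. That share includes many genes of lower level, and none at a like level is given.

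Set against the inhibitor-treated arrays, the released arrays were lower for 14 genes and higher for 8, and 7 did not pass. Over all genes 41.9% passed, 22.7% as higher and 19.2% as lower, and among genes at or above the level of the lowest of the 29 the share was 63% (33.1% higher and 29.9% lower). The median change of the 29 was -0.15, against 0.06 over all genes, and 27 genes did not overlap between these groups, where 61.9% of all genes did not. By role, 4 mevalonate genes were higher and 2 lower, 3 of the genes between squalene and cholesterol were higher and 6 lower, 0 regulators were higher and 4 lower, and 1 fatty acid gene was higher and 2 lower. In this comparison Srebf2 read 8.03, 8.08 and 8.08 on released arrays, against 8.94 and 8.85 on inhibitor-treated arrays (-0.83 ± 0.061, 1.78-fold lower, adjusted p = 3.23e-06, limma). The other probe set of Srebf2 changed by -0.13 between released and inhibitor-treated arrays and did not pass (adjusted p = 0.211, limma over all probe sets). From the DMSO arrays, released Srebf2 differed by -0.06 ± 0.054 (adjusted p = 0.54). Cyp51 read 8.79, 8.82 and 8.81 on released arrays, against 9.55 and 9.46 on inhibitor-treated arrays, a change of -0.70 ± 0.069 (adjusted p = 2.46e-05, limma). Its difference from DMSO after release was 0.00 ± 0.062. Another Cyp51 probe set was also lower than with inhibitor (-0.54), and a dimmer probe set did not pass (-0.09).

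Msmo1 (10.03, 10.10 and 10.10 on released arrays), Sc5d (8.17, 8.26 and 8.13), Fdft1 (10.16, 10.22 and 10.19) and Sqle were also lower than with inhibitor, by 0.45 to 0.60 on the log2 scale. Among their other probe sets, those that passed as lower belonged to Sc5d (-0.48) and Fdft1 (-0.52). Dimmer probe sets of Msmo1 (-0.17), Sc5d (-0.11) and Fdft1 (0.25 and -0.06) did not pass. Among the genes that the inhibitor had lowered, Ebp was 1.62-fold higher on released than on inhibitor-treated arrays (0.70 ± 0.064, adjusted p = 1.43e-05, limma). Mvd read 7.78, 7.94 and 7.79 on released arrays (0.41 ± 0.087, adjusted p = 0.00364), Idi1 9.81, 9.92 and 9.85 (0.36 ± 0.07, adjusted p = 0.00207) and Fdps 10.72, 10.65 and 10.70 (0.26 ± 0.062, adjusted p = 0.00717). Each released array of these 3 genes lay above both inhibitor-treated arrays, though Fdps lost the call without the second of these (adjusted p = 0.0661). Mvk was 0.27 ± 0.077 higher (adjusted p = 0.0172, limma), with an adjusted p of 0.166 without the second inhibitor-treated array and 0.0531 without the first released array. Nsdhl was 0.23 ± 0.081 higher (adjusted p = 0.0459, limma), with an adjusted p of 0.28 without the second inhibitor-treated array, 0.132 without the second released array and 0.0743 without the third.

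Call patterns across the 3 comparisons were counted for the 29 genes alone, and no share over all genes is given beside them. Both comparisons with inhibitor-treated arrays use the same arrays of that group, so an error there enters them in opposite directions. Read across the 3 comparisons, 10 genes were higher with the inhibitor, lower again on release and not different from DMSO by the test. These were Fdft1, Sqle, Cyp51, Msmo1, Sc5d, Srebf2, Insig1, Insig2, Scd2 and, on its kept probe set alone, Scd1, whose other probe set had the opposite calls. For 3 of them a probe set that was not kept did pass against DMSO after release (limma over all probe sets). These belonged to Msmo1 (0.43, adjusted p = 0.0148), Scd2 (-0.37, adjusted p = 0.0246) and Fdft1 (-0.24, adjusted p = 0.0496). Sqle passed as lower than DMSO in 4 of 14 alternatives. The mirror pattern, lower with the inhibitor and higher on release, held for 5 genes, Mvk, Mvd, Idi1, Fdps and Nsdhl. On release against inhibitor-treated arrays, the other probe sets of Idi1 (0.21, adjusted p = 0.103) and Fdps (0.06, adjusted p = 0.633) did not pass (limma over all probe sets). Pmvk and Dhcr7 were lower on released arrays than in both other groups. Tm7sf2, the sterol reductase, and Elovl6 passed as higher and Srebf1 as lower on release in the comparison with inhibitor-treated arrays alone. The call of Tm7sf2 (0.28 ± 0.065, adjusted p = 0.00539) was lost without the second inhibitor-treated array (0.0548), and that of Srebf1 (-0.20 ± 0.064, adjusted p = 0.0297) without either inhibitor-treated array (0.148 and 0.0715) or without the first or the third released array (0.0641 and 0.082). Scap and Stard4 passed in the comparison of inhibitor with DMSO alone on their kept probe sets. The other probe sets of Stard4 were higher on released than on inhibitor-treated arrays, by 0.93 (adjusted p = 2.11e-05) and 0.70 (adjusted p = 0.000132), and the kept one passed (adjusted p = 0.0389) when the third released array was left out. On their kept probe sets Lss, Hsd17b7, Fasn, Acaca and Acly passed in none. Their changes there lay between -0.15 and 0.17 in all 3 comparisons. Under alternative settings, Fasn passed as lower on release than with inhibitor in 4 of 13, Acaca as higher in 3 and Acly in 1. Low-level probe sets of Acly also passed (limma over all probe sets). They gave -0.30 with the inhibitor (adjusted p = 0.0166) and 0.27 and 0.40 on release against inhibitor-treated arrays (adjusted p = 0.0266 and 0.00205).

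**Figure D4:**
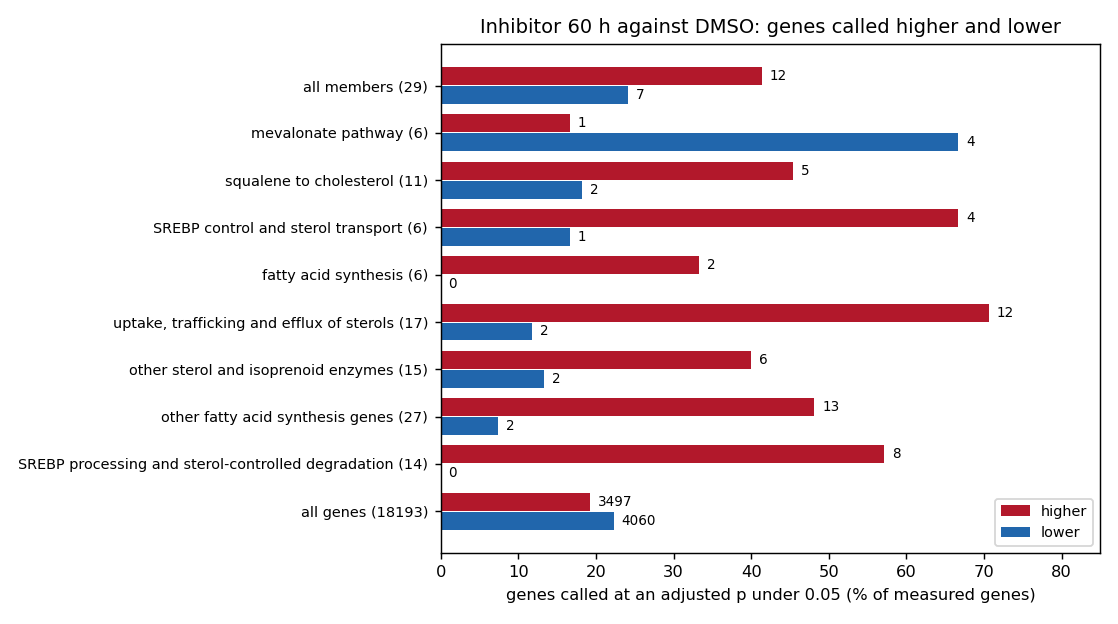
Percent of measured genes that passed as higher (red) and as lower (blue) with the inhibitor against DMSO, for the 29 genes, each role among them, the 4 other gene lists of the pathway and all 18193 genes, with the number of genes beside each bar. With the inhibitor 41.4% of the 29 genes were higher and 24.1% lower, against 19.2% and 22.3% of all genes.

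Several of these genes were measured by more than 1 probe set. The 29 genes had 67 probe sets of 1 symbol, 20 genes had several, and in the inhibitor comparison 22 probe sets passed as higher and 15 as lower. Only Scd1 held calls in opposite directions. For Hmgcs1, all 5 probe sets passed with changes between 0.60 and 1.48, and second probe sets also passed for Mvk (-0.28), Mvd (-0.41), Idi1 (-0.33), Fdft1 (0.28), Cyp51 (0.57) and Msmo1 (0.60). Dimmer probe sets did not pass for Fdft1 (-0.18 on 2 of them), Cyp51 (-0.01), Sc5d (0.20) and Fdps (-0.10). With the mean of its probe sets, the change of Fdft1 was 0.064 and did not pass (adjusted p = 0.396). Elovl6, which did not pass on its kept probe set, had a second one that fell by 0.43 (adjusted p = 0.00248) and another with a change of 0.21 that did not pass. The names of the kept probe sets of Hmgcs1, Fdft1 and Acly carry the _x_at suffix and that of Lss the _s_at suffix, with which the array's maker marks probes that can also match other transcripts.

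**Figure D5:**
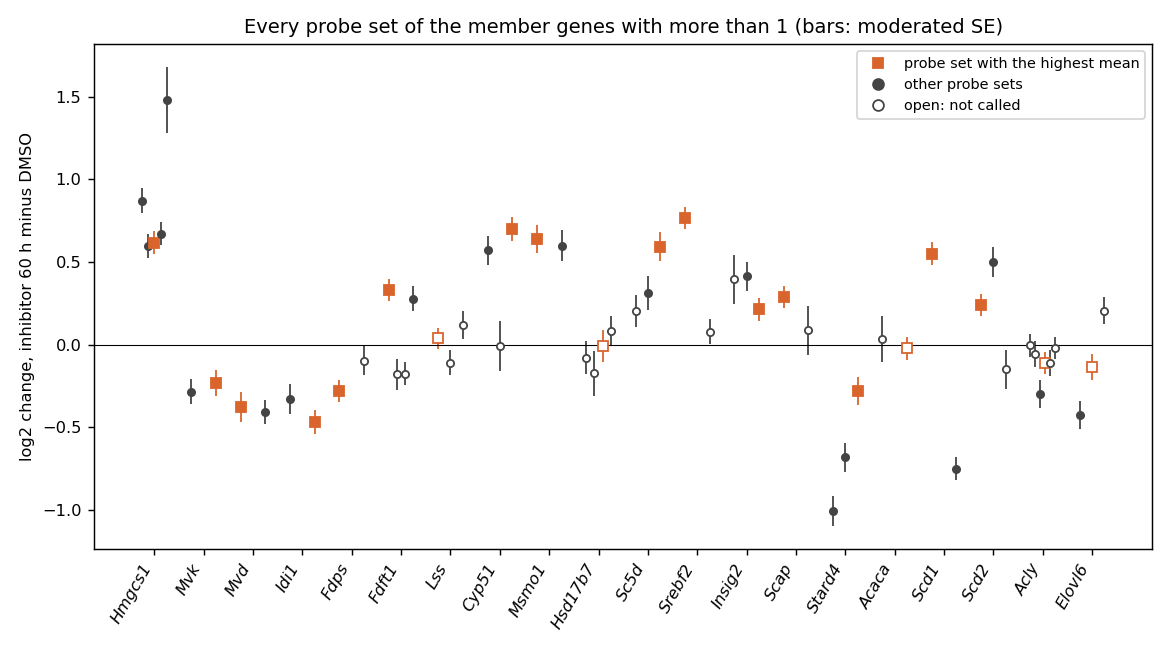
Log2 change with the inhibitor against DMSO (vertical axis) for every probe set of the 20 genes with several, with SE as bars, squares for the kept probe set, circles for the others and open marks where the test was not passed. The probe sets of Hmgcs1 lie between 0.60 and 1.48, and those of Scd1 lie at 0.55 and -0.75.

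Some other genes of the pathway changed more than any of the 29. Of 17 measured genes for the uptake, trafficking and efflux of sterol, 12 were higher with the inhibitor, 2 were lower and 3 did not pass, with a median change of 0.42. These lists stand beside 19.2% higher and 22.3% lower over all genes, and 29.7% and 33.1% over the 7795 genes. The 7795 were set by the lowest of the 29 genes, and some genes of these lists, such as Nr1h3 and Idi2, lie below that level. Abca1, the pump that exports cholesterol to apolipoproteins, read 8.94 and 8.99 on inhibitor-treated arrays, against 6.25, 6.39 and 6.23 on DMSO arrays. It was 6.38-fold higher (2.67 ± 0.071, adjusted p = 1.25e-08, limma), and at 6.70, 6.81 and 6.75 the released arrays still lay above DMSO (0.46 ± 0.063, adjusted p = 0.00207). With the inhibitor 2 of its 3 probe sets passed as higher, with changes from 0.09 to 2.67. Vldlr, a lipoprotein receptor, read 7.70 and 7.67 with inhibitor, against 5.07, 5.23 and 5.20 with DMSO. It was 5.73-fold higher (2.52 ± 0.14, adjusted p = 6.41e-07, limma), 4 of its 6 probe sets passing as higher, and released arrays at 5.69, 6.04 and 5.46 again lay above DMSO (0.56 ± 0.12, adjusted p = 0.0224). Abcg1, which exports cholesterol to lipoprotein particles, went the other way, with 6.33 and 6.36 on inhibitor-treated arrays, against 7.16, 7.16 and 7.21 on DMSO arrays (-0.83 ± 0.061, adjusted p = 3.53e-06, limma). Its released arrays stayed below DMSO at 6.62, 6.59 and 6.68 (-0.54 ± 0.054, adjusted p = 0.000335). With the inhibitor 1 of the 2 probe sets of Abcg1 passed as lower, with changes of -0.83 and -0.29. Osbp, which exchanges sterol at the Golgi, was 0.94 ± 0.071 higher with the inhibitor (adjusted p = 4.65e-06, limma) and differed by -0.01 from DMSO after release. With the mean of probe sets the calls after release were lost for Abca1 (0.11, adjusted p = 0.484), Vldlr (0.14, adjusted p = 0.272) and Abcg1 (-0.25, adjusted p = 0.0987). The call of Vldlr after release was also lost without the first released array or any 1 of the DMSO arrays (adjusted p between 0.0529 and 0.0792).

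Of 14 measured genes for SREBP processing and sterol-controlled degradation, 8 were higher with the inhibitor, 0 were lower and 6 did not pass (median 0.37). These counts hold for the kept probe sets. Mbtps1 of this list had 2 of 3 probe sets that passed as lower in the fit over all probe sets, with changes from -0.60 to 0.09. The 57.1% that passed compares with 41.5% of all genes and 62.8% of the 7795. Sec23a and Sec24d, coat proteins of the vesicles that carry SCAP and SREBP out of the endoplasmic reticulum, had the smallest p. Sec23a read 10.48 and 10.49 with inhibitor, against 9.22, 9.35 and 9.33 with DMSO (2.28-fold, 1.19 ± 0.064, adjusted p = 5.47e-07, limma). Sec24d read 9.35 and 9.36 with inhibitor, against 8.30, 8.25 and 8.32 with DMSO (1.07 ± 0.068, adjusted p = 1.48e-06, limma). Both were higher on each inhibitor-treated array, as were Sec24c (0.54) and Paqr3 (0.85), which tethers SCAP and SREBP at the Golgi. Sec24c passed on 1 of its 2 probe sets, with changes from -0.10 to 0.54. After release, 0 of these 14 genes passed against DMSO, where 8.66% of all genes and 12.9% of the 7795 did.

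Of 27 other genes of fatty acid synthesis, desaturation and activation, 13 were higher with the inhibitor, 2 were lower and 12 did not pass (median 0.19), so that 55.6% passed, against 41.5% of all genes and 62.8% of the 7795. Elovl7, an elongase of long-chain fatty acids, read 10.04 and 10.00 with inhibitor, against 8.54, 8.65 and 8.72 with DMSO (2.62-fold, 1.39 ± 0.071, adjusted p = 4.03e-07, limma). After release it was slightly below DMSO at 8.29, 8.38 and 8.37 (-0.29 ± 0.064, adjusted p = 0.0215), a call lost without any 1 of the released arrays or without the second or the third DMSO array (adjusted p between 0.0522 and 0.0789). Elovl1, an elongase of very long chains, was 2.34-fold higher with the inhibitor (1.23 ± 0.065, adjusted p = 4.78e-07, limma) and 0.42 ± 0.058 above DMSO after release (adjusted p = 0.0021). Me1, the malic enzyme that supplies NADPH, was 0.99 ± 0.069 higher with the inhibitor (adjusted p = 2.71e-06) and 0.27 ± 0.062 higher after release (adjusted p = 0.0263). The call of Me1 after release was lost without the first or the second released array, without the first or the second DMSO array (adjusted p between 0.0545 and 0.0942) and with the mean of probe sets (0.16, adjusted p = 0.113). With the inhibitor Acss2, which makes acetyl-CoA from acetate, was 0.68 ± 0.061 higher (adjusted p = 1.35e-05). Against DMSO after release, 6 of the 27 passed as higher and 6 as lower, where 4.66% and 4.01% of all genes and 6.61% and 6.26% of the 7795 did.

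Of 15 other sterol and isoprenoid enzymes, 6 were higher with the inhibitor, 2 were lower and 7 did not pass (median 0.07). The 53.3% that passed lies between the 41.5% of all genes and the 62.8% of the 7795. Hsd3b7, a dehydrogenase of bile acid synthesis, was 2.09-fold higher (1.06 ± 0.075, adjusted p = 2.83e-06, limma) and stood 0.43 ± 0.067 above DMSO after release (adjusted p = 0.004). Higher with the inhibitor was also Pggt1b, a subunit of the enzyme that attaches geranylgeranyl groups to proteins, by 0.76 ± 0.081. It passed on 2 of its 4 probe sets, with changes from -0.03 to 0.76. Lbr, the lamin receptor that also reduces sterols, was lower, with a change of -0.45 ± 0.063 (adjusted p = 0.000279, limma). Cyp27a1, a mitochondrial sterol hydroxylase, changed by 0.73 ± 0.11 at a low level of 5.24 and 5.08 on inhibitor-treated arrays, against 4.20, 4.50 and 4.60 on DMSO arrays. Its other probe set changed by -0.02 and did not pass. After release, 1 of the 15 was higher than DMSO and 1 was lower, where 4.66% and 4.01% of all genes were. Of the 7795, 6.61% and 6.26% were.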

How the data were processed

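RNA of 8 mouse ESC samples was measured on 8 Affymetrix arrays. The deposited values are log2 expression values, which per the submitters' processing notes were made with RMA in oligo 1.32.0 and limma 3.2.15. Of 45101 probe sets, 34945 have 1 gene symbol in the platform annotation, and per gene the one with the highest mean was kept (18193 genes). No filter on level was applied. Differences were fitted in R 4.3.3 with limma 3.58.1 (lmFit, eBayes), all 8 arrays in 1 fit with 5 residual degrees of freedom. Two-sided p-values of each comparison were adjusted (Benjamini-Hochberg, all 18193 genes; threshold 0.05), and ± gives the moderated standard error. The procedure was tested on simulated data.

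The members and gene lists were chosen with earlier results of these data known. All members are described, and of each other list the 4 genes with the smallest p. Alternatives were another probe set rule, leaving out genes under the 30th percentile of mean level, centring or quantile normalization of arrays, other variance settings, only the arrays compared, a stricter threshold, a replicate block and leaving out each array. Every other probe set was added after the data were seen. The number of arrays limits the precision.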

Additional observations from a re-analysis of the deposited data

How the results depend on the processing

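Under the alternatives other than single probe sets, 9 of the 19 genes called with the inhibitor, 1 of 4 called between released and DMSO arrays (Pmvk) and 16 of 22 called between released and inhibitor-treated arrays kept their call throughout. When every other probe set of a gene was counted as well, 5 of the 19 (Ebp, Hmgcs1, Idi1, Msmo1 and Sqle), 1 of the 4 and 7 of the 22 (Dhcr7, Ebp, Hmgcs1, Insig1, Mvd, Pmvk and Sqle) did. Of genes not called, 2 of 10, 7 of 25 and 4 of 7 gained a call somewhere. With adjusted p under 0.01, 4 genes were lower with the inhibitor, and after release 0 were higher and 1 was lower than DMSO. After release, genes higher than DMSO numbered 4 with the mean of probe sets, 4 without low-level genes and 4 with a variance trend and robust fitting. Genes lower than DMSO numbered 5, 4 and 6 in these settings and 4 with median centring. Counts under the alternatives in this section stand without the counts over all genes in the same setting. A setting can call more or fewer of all genes, so these counts show no shift particular to the sterol and fatty acid genes. The median change between released and inhibitor-treated arrays was -0.041 with the mean of probe sets. Scd1 with the inhibitor had -0.10 with the mean of probe sets (adjusted p = 0.203) and -0.75 on its other probe set, where release against inhibitor gave 0.61. Acly on a low-level probe set had 0.29 in released against DMSO arrays (adjusted p = 0.033). The cause of these shifts was not tested.

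Leaving out 1 array gave 9 to 12 higher and 3 to 7 lower genes with the inhibitor (3 without the second inhibitor-treated array), with a median of -0.02 to 0.05. For released against DMSO it gave 2 higher, 1 to 2 lower and a median of -0.04 to -0.00. For released against inhibitor-treated arrays it gave 4 to 8 higher (4 without the second inhibitor-treated array), 13 to 14 lower and a median of -0.18 to -0.13. Where 1 inhibitor-treated array remained, it was assumed to vary like the other groups.

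Arrays with the same number did not deviate together (correlations -0.06 to 0.01), which gives no sign that the numbers pair the samples. With 2 or 3 arrays per group, these correlations cannot exclude such pairing. With the number as a block, 11 genes were higher and 7 lower with the inhibitor, 2 and 2 in released against DMSO, and 7 and 13 in released against inhibitor-treated arrays. Signals near the bacterial control level of 2.15 to 2.95 understate fold changes, and the lowest value of the 29 genes was 6.19.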

Other observations

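Some other lipid genes of the lists, named here after their values were seen, also differed. Lrp8, a lipoprotein receptor, read 6.20, 6.42 and 6.40 on released arrays, 7.15 and 7.12 on inhibitor-treated arrays and 6.09, 6.28 and 6.27 on DMSO arrays. It was 1.89-fold higher with the inhibitor (limma, adjusted p = 2.12e-05) and did not pass against DMSO after release (adjusted p = 0.39). With the inhibitor 2 of its 3 probe sets passed as higher, with changes from 0.13 to 1.36. Fads1, a desaturase of polyunsaturated fatty acids, was 0.69 ± 0.064 higher with the inhibitor (adjusted p = 1.68e-05, limma), and Tmem97, a membrane protein that binds the cholesterol transporter NPC1, was lower, with a change of -0.48 ± 0.073 (adjusted p = 0.000503, limma).

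The share of all genes that passed in the same direction in both comparisons with DMSO was not counted. These comparisons share the DMSO arrays. Across the 4 lists, of 17, 14, 27 and 15 measured genes, 10 passed against DMSO in the same direction after release and with the inhibitor. Besides Abca1, Vldlr, Abcg1, Hsd3b7, Elovl1 and Me1, described above, these were Mid1ip1, Elovl2, Scarb1 and Gpam. Scarb1, a lipoprotein receptor, changed by 0.35 after release (adjusted p = 0.0458, limma) and by 0.31 with the inhibitor (adjusted p = 0.0356). Gpam, which starts glycerolipid synthesis, changed by 0.26 after release (adjusted p = 0.0133, limma) and by 0.28 with the inhibitor (adjusted p = 0.00328). Both calls of Scarb1 were lost when single arrays were left out, after release without any of 5 arrays (adjusted p between 0.0658 and 0.137) and with the inhibitor without any of 4 (between 0.0778 and 0.182). Those of Gpam were lost with the mean of probe sets (adjusted p = 0.228 after release and 0.116 with the inhibitor), and the call after release also without the first released array (0.0517). Mid1ip1, which helps acetyl-CoA carboxylase to polymerise, read 6.92, 7.02 and 6.93 on released arrays, 7.25 and 7.11 on inhibitor-treated arrays and 6.24, 6.47 and 6.38 on DMSO arrays. Its change was 0.59 ± 0.074 after release (adjusted p = 0.00125, limma) and 0.81 ± 0.083 with the inhibitor (adjusted p = 3.21e-05). Elovl2, an elongase of polyunsaturated fatty acids, read 3.70, 3.67 and 3.91 on released arrays, 3.53 and 3.76 on inhibitor-treated arrays and 4.55, 4.48 and 4.60 on DMSO arrays, a low level. Its change was -0.78 ± 0.086 after release (adjusted p = 0.000614, limma) and -0.90 ± 0.096 with the inhibitor (adjusted p = 4.56e-05). Acacb, the mitochondrial acetyl-CoA carboxylase, was below DMSO with the inhibitor (-0.45 ± 0.082, adjusted p = 0.00138, limma), and after release its change of 0.26 did not pass (adjusted p = 0.0564).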
